A study of Mus musculus with 4 samples.

Results

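The solute carriers described here were the genes with a single platform symbol beginning with Slc and a digit whose brightest probe set had a mean log2 value of 7 or more over the 4 arrays, with Slc6a2 named in the rule besides. Of 347 such Slc genes on the array, 147 were kept, and Slc6a2 also met the limit of 7 by its mean. These genes were thus chosen by their mean level over the arrays, and Slc6a2 was in addition singled out for its difference between the lines, so that its values are given as a description and it is left out of every count and median below, which cover the other 146. Both line means were at or above 7 in 138 of the 147. Slc25a45 and Slc2a12 passed through the K14CREER arrays alone, and Slc15a2, Slc25a40, Slc25a42, Slc26a11, Slc35d2, Slc52a3 and Slc9a9 through the InvCREER arrays alone, so that a difference in these 9 is in part a product of the rule. Just inside the limit lay Slc25a40 and Slc30a3, with means of 7.005 and 7.03, and just outside it Slc35c2 and Slc5a9, with means of 6.97 and 6.94.

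The samples were basal cells sorted from tail epidermis of CD-1 mice by high alpha6 integrin, absence of CD34 and YFP fluorescence, and measured on Affymetrix 3' expression arrays. Every mouse carried a Rosa-YFP reporter switched on by a tamoxifen-inducible Cre recombinase (CREER). In K14CREER mice, given 1 ug of tamoxifen, the Cre was driven by the keratin 14 promoter, which is active in basal keratinocytes. In InvCREER mice, given 10 ug, it was driven by the promoter of involucrin, a protein of differentiating keratinocytes. The dose of tamoxifen went with the line, and these cannot be told apart. Mice were killed 3.5 days after induction by the titles and 4 days by the treatment protocol. There were 2 arrays per line, the ages were not given, and the labels do not state whether separate mice stand behind the arrays of 1 line, so that the p-values speak only of array-to-array spread, which may be technical. The number of arrays limits the precision.

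Solute carriers are membrane proteins that move nutrients, ions, vitamins and metabolites across the plasma membrane and the membranes of organelles. Many are driven by the sodium gradient of the sodium pump or by protons, and others exchange one solute for another. In the epidermis, basal keratinocytes take up the amino acids and glucose used for growth, while the differentiating layers supply the fatty acids needed for a water barrier. Deposited values were RMA log2 intensities. A difference is the InvCREER mean less the K14CREER mean on the log2 scale and stands beside its standard error (SE) as moderated by limma. Genes with an adjusted p under 0.05 (Benjamini-Hochberg, over 22519 probe sets) were called. Probe brightness was not compared between genes.

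Itga6, the gene of the alpha6 integrin used in the sort, was at 12.38 and 12.41 in K14CREER and at 11.62 and 11.77 in InvCREER. Cd34, whose product the sort excluded, was at 6.07 on K14CREER array 1 and between 3.59 and 3.88 on the other arrays. All 7 basal keratinocyte markers were measured, with list means of 12.83 and 12.72 on the K14CREER arrays and 12.10 and 11.94 on the InvCREER arrays, and all 7 had a lower mean in InvCREER. Sebaceous gland markers, of which 8 of 12 were measured, had list means of 6.15 and 5.56 in K14CREER, 9.0 on InvCREER array 1 and 7.44 on InvCREER array 2, and all 8 were higher in InvCREER. Langerhans and myeloid markers were at 5.79 and 5.50 in K14CREER and at 7.36 and 6.16 in InvCREER, with 9 of 10 higher. Suprabasal markers were higher in 5 of 6, with list means of 8.29 and 8.81 in K14CREER and 8.93 and 9.33 in InvCREER. Krt1, Krt10 and Dsg1a did not overlap between the lines, and Lor, Flg and Ivl did. The lower one was Ivl, the gene of involucrin, at 4.58 and 6.23 against 4.78 and 5.06. Fibroblast markers were lower in 7 of 8, most widely Sparc and Dcn. In each of these lists 4 markers had a mean at or above 5.42, the limit for testing. Endothelial, erythroid, adipocyte and T cell list means were at or below 5.49 on every array. In the T cell list, lower in 3 of 4, Thy1 was at 9.18 and 7.80 in K14CREER and at 6.64 and 6.71 in InvCREER. The other measured T cell markers lay at or below 5.63. Melanocyte markers were lower in 6 of 7, with list means of 6.65 and 6.16 in K14CREER and 6.14 and 6.65 in InvCREER, and follicle markers lower in 3 of 6, with 6.52 and 5.98 against 6.05 and 5.79. The Merkel list mean was 5.47 on K14CREER array 1 and between 4.14 and 4.42 on the others, and its members Krt18 and Krt8 were at 7.69 and 7.44 on that array against at most 4.40 and 5.34. The 3' minus 5' difference of control probe sets, a sign of RNA quality, was largest on InvCREER array 1, at 1.24 for Actb and 0.74 for Gapdh. It was 0.94, 0.68 and 0.77 for Actb and 0.33, 0.07 and 0.05 for Gapdh on K14CREER arrays 1 and 2 and InvCREER array 2. In such sorted bulk samples fewer cells of a type and less RNA per cell cannot be told apart.

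As a group the solute carriers lay neither higher nor lower in InvCREER. Their median difference was 0.02, against -0.01 over the 8375 genes with a mean of 7 or more, with 70 lower and 76 higher means (51.2% and 48.8% of the 8375). In 38 (26%) both InvCREER arrays lay below both K14CREER arrays, and in 40 (27.4%) above, where the shares over those 8375 genes were 23.6% and 21.9%. The median size of the difference between line means was 0.24, against 0.21 over those 8375 genes. Between the single arrays of one line the median size was 0.26 in K14CREER and 0.23 in InvCREER. These are unlike measures, since a line mean averages 2 arrays and so varies less than 1 array. limma called 1 of the 146 lower (Slc6a6) and 0 higher. Of the 8375 genes 1.41% were called, 0.43% lower and 0.979% higher, and of all tested probe sets 0.959%. At an unadjusted p under 0.05 there were 17 lower and 15 higher, against 8.74% and 7.62% of the 8375 genes. At least 2-fold differences between line means were seen in 6 lower and 9 higher genes, against 2.64% and 3.36% of the 8375. Both InvCREER arrays lay at least 1.5-fold below both K14CREER arrays in 9 and above them in 8, against 3.47% and 3.65%. Slc15a2, Slc9a9 and Slc52a3, which passed the limit of 7 through InvCREER alone, are among the higher genes of both fold counts. Slc2a12, which passed through K14CREER alone, is among the 9 lower. The fold counts are thus in part a product of the rule. The counts at an unadjusted p and both fold counts were larger shares of the 146 than of the 8375, which was not tested. Several genes lay just short of the threshold. When each gene entered the test with 1 probe set, fewer tests were adjusted for, and 10 of the 146 were called, 6 lower and 4 higher. The share of all genes called was not taken for that setting or for the omissions that follow. Such counts therefore show nothing particular to the carriers. Without K14CREER array 1 limma called 0 of the 146, without K14CREER array 2 1, without InvCREER array 1 5 and without InvCREER array 2 9. Each omission leaves a single array in 1 line, whose spread is then taken from the other line, so that a call without an InvCREER array rests on the spread of the K14CREER arrays and limma's variance model. The genes named below were taken by a rule on the difference and the level within each class, and others, among them Slc6a4, Slc3a2, Slc7a6, Slc1a4, Slc38a9, Slc2a12, Slc24a3, Slc29a1, Slc31a1, Slc35a2, Slc39a13, Slc66a2, Slc9a3r1 and those described only by their values, were chosen after their values were seen.

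**Figure D1:**
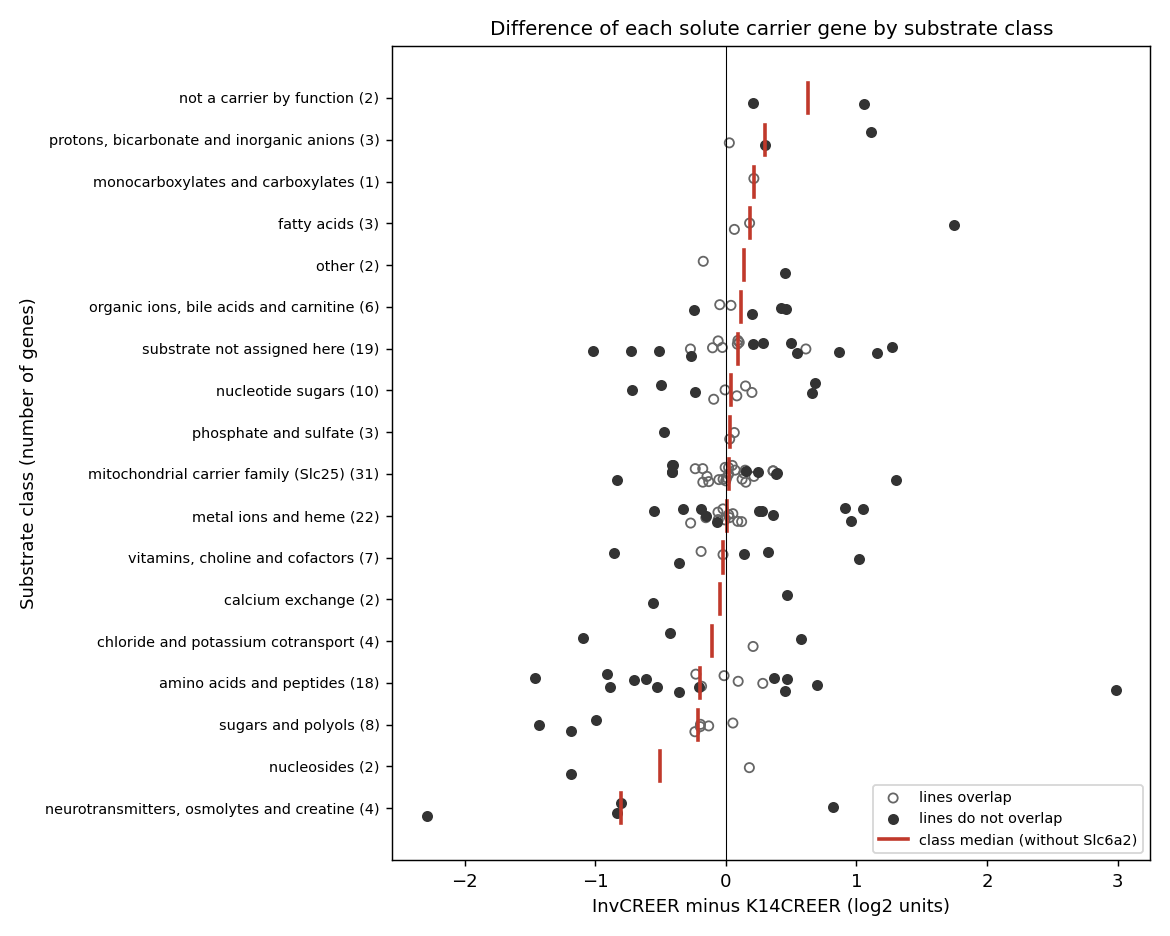
Difference between InvCREER and K14CREER (log2 units, horizontal axis) for each of the 147 genes, by substrate class (vertical axis, ordered by class median, with the number of genes). Filled points are genes whose arrays do not overlap between the lines, open points those that overlap, and red bars class medians without Slc6a2. The median size of the difference is 0.15 in metal ion genes and 0.16 in Slc25 genes, against 0.21 over the 8375 genes with a mean of 7 or more. Apart from Slc6a2, which was chosen for its difference, Slc7a5, Slc2a5 and Slc2a1 lie farthest to the left.

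Members of the Slc6 family, which couple solute uptake to sodium and chloride, held the 1 called gene. Slc6a6, the carrier of the osmolyte taurine, was at 13.11 and 13.02 in K14CREER and at 12.28 and 12.18 in InvCREER. Both InvCREER arrays lay below both K14CREER arrays, and each line was tight. Slc6a6 fell from 13.06 ± 0.06 to 12.23 ± 0.07 (SD, n = 2 arrays per line), a difference of -0.83 (SE 0.10, adjusted p = 0.0260 by limma). Its 3 other tested probe sets had the same sign and none was called, and the difference was -1.03 over the mean of all 4. The call was lost without K14CREER array 1 (adjusted p = 0.110), without K14CREER array 2 (adjusted p = 0.0680) and without the variance trend (adjusted p = 0.144, all by limma).

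Slc6a2 encodes the noradrenaline transporter, known for clearing noradrenaline at sympathetic nerve endings. It was at 10.25 and 10.62 in K14CREER and at 8.27 and 8.01 in InvCREER, a difference of -2.29, or 4.89-fold on the linear scale. The lines lay far apart and did not overlap. Its 3 other probe sets had lower means in InvCREER too. On 1 of them the values were 6.96 and 7.02 in K14CREER against 6.25 and 6.36 in InvCREER, and on another 6.40 and 6.90 against 5.05 and 5.07, so that the size differed between probe sets. Over the mean of the 3 tested ones it was -1.52. This gene was chosen for its difference, and no test is given.

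Slc6a4, the serotonin transporter, was at 9.13 and 8.88 in K14CREER and at 8.21 and 8.19 in InvCREER, a difference of -0.80 (SE 0.22) that was not called (adjusted p = 0.158 by limma). Slc6a8, which takes up creatine, the store of high-energy phosphate, lay the other way, at 10.27 and 10.48 in K14CREER against 11.34 and 11.04 in InvCREER. Its difference of 0.82 (SE 0.18) was not called (adjusted p = 0.0989 by limma), and was called without InvCREER array 2 (adjusted p = 0.0324) but not without any other array (adjusted p from 0.183 to 0.296, by limma). Neither gene overlapped between the lines. Slc6a9, a glycine carrier counted here with the amino acids, was at 10.06 and 9.19 in K14CREER and at 9.81 and 9.06 in InvCREER, and so differed more between array numbers than between lines.

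Of 18 amino acid and peptide carriers 11 had lower and 7 higher means in InvCREER, with a median difference of -0.19, and limma called 0 of them, with 4 lower and 1 higher at an unadjusted p under 0.05, a level that 8.74% and 7.62% of the 8375 genes reached. The median ranged from -0.27 without K14CREER array 2 to -0.042 without InvCREER array 1. In 8 (44.4%) both InvCREER arrays lay below both K14CREER arrays and in 5 (27.8%) above, against 23.6% and 21.9% of the 8375 genes. System L exchanges large neutral amino acids such as leucine. Its light chain Slc7a5 was at 11.80 and 11.17 in K14CREER and at 10.22 and 9.83 in InvCREER, with a gap between the lines wider than the spread within either. The difference was -1.46 (SE 0.25, adjusted p = 0.0609 by limma), and it was called without InvCREER array 1 (adjusted p = 0.00380) and without InvCREER array 2 (adjusted p = 0.0119), but not without K14CREER array 1 (adjusted p = 0.178) or K14CREER array 2 (adjusted p = 0.0515, all by limma). Without the variance trend the adjusted p was 0.109 by limma. Slc3a2, the heavy chain that brings this light chain to the cell surface, was at 11.39 and 10.78 in K14CREER and at 10.39 and 10.01 in InvCREER, a difference of -0.88 (SE 0.25, adjusted p = 0.177 by limma). On both genes array 1 was the higher array of each line. The difference of Slc3a2 was -0.58 without K14CREER array 1. Slc7a6, another light chain that pairs with Slc3a2, was at 9.08 and 8.69 in K14CREER and at 7.86 and 8.08 in InvCREER, with no overlap and a difference of -0.91 (SE 0.24, adjusted p = 0.154 by limma).

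Slc38a2, a sodium-coupled carrier of small neutral amino acids (system A), was at 12.53 and 12.40 in K14CREER and at 11.97 and 11.75 in InvCREER. Its difference of -0.61 (SE 0.13) missed the threshold (adjusted p = 0.0922 by limma) and was called without InvCREER array 1 (-0.72, adjusted p = 0.0274) but not without any other array (adjusted p from 0.0894 to 0.297, by limma). Over the mean of its probe sets it was -0.46. Slc1a4, an exchanger of alanine, serine and cysteine, was at 8.34 and 8.44 against 8.002 and 7.73. The cationic amino acid carrier Slc7a1 was at 10.47 and 10.64 in K14CREER and at 10.19 and 10.21 in InvCREER, so that these carriers too did not overlap. Higher without overlap were 5 genes of the class. Slc38a9, which reports lysosomal arginine to the growth regulator mTORC1, was at 6.997 and 7.24 in K14CREER and at 7.95 and 7.68 in InvCREER, a difference of 0.70 (SE 0.24, adjusted p = 0.267 by limma). Slc66a1, which exports cationic amino acids from lysosomes, was at 7.16 and 7.24 against 7.73 and 7.60. In the same class Slc15a4 (-0.01) and Slc36a1 (0.28) overlapped, and Slc36a4 was lower without overlap (-0.20).

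Slc15a2, a proton-coupled carrier of di- and tripeptides, had a wider spread within a line than any other of the 147 genes. It was at 4.62 on K14CREER array 1, 8.97 on K14CREER array 2, and 9.89 and 9.67 in InvCREER. Array 1 of K14CREER lay over 2 log2 units below all other arrays, which among the 147 genes was seen in this gene alone and among the 8375 genes in 2. The difference of 2.99 (SE 1.24, adjusted p = 0.363 by limma) was 0.81 without K14CREER array 1 and 5.16 without K14CREER array 2, where the adjusted p was 0.00863 by limma with the outlying array as the only one of K14CREER. This gene also reached the limit of 7 through InvCREER alone. On K14CREER array 1 the Merkel and follicle genes Krt18, Krt8 and Cd34 were higher than on the other arrays, and their part in this value was not tested. The other tested probe set of the gene lay close to the filter value of 5.42. It was at 5.73 and 5.29 in K14CREER and at 5.34 and 5.67 in InvCREER, without the pattern. A further probe set below the filter was at 4.80 and 4.87 against 4.87 and 4.89. The difference thus rests on 1 of 3 probe sets, and the reason was not tested.

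Of 8 sugar and polyol carriers 7 had lower means in InvCREER, with a median of -0.22, where 51.2% of the 8375 genes had lower means. limma called 0, with 3 lower and 0 higher at an unadjusted p under 0.05, against 8.74% and 7.62% of the 8375 genes. With 1 array left out the median lay between -0.52 (without K14CREER array 2) and -0.30 (without InvCREER array 1). In 3 (37.5%) both InvCREER arrays lay below both K14CREER arrays, against 23.6% of the 8375 genes. These 3 were all facilitators of the Slc2 (GLUT) family, and 1 of them, Slc2a12, passed the limit of 7 through K14CREER alone. Slc2a1, the widespread glucose carrier GLUT1, was at 12.55 and 12.34 in K14CREER and at 11.50 and 11.01 in InvCREER, a difference of -1.19 (SE 0.19, adjusted p = 0.0528 by limma). Its 2 other probe sets showed the same order. One of them, at 12.24 and 12.13 in K14CREER against 10.98 and 10.60 in InvCREER, was called (-1.40, adjusted p = 0.0251 by limma), so that the call of this gene rested on the choice of probe set. The brightest probe set was called without InvCREER array 1 (adjusted p = 0.000420) and without InvCREER array 2 (adjusted p = 0.00430), but not without K14CREER array 1 (adjusted p = 0.167) or K14CREER array 2 (adjusted p = 0.0942, all by limma).

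The fructose carrier Slc2a5 was at 8.97 and 9.58 in K14CREER and at 7.66 and 8.03 in InvCREER, a difference of -1.43 (SE 0.29, adjusted p = 0.0841 by limma) that was called without InvCREER array 2 (adjusted p = 0.0205) but not without any other array (adjusted p from 0.101 to 0.253, by limma). Slc2a12 was at 8.14 and 7.56 against 6.90 and 6.80, the InvCREER mean being under 7. Slc2a8, a facilitator of internal membranes, overlapped between the lines, at 7.64 and 7.77 against 7.83 and 7.69. So did Slc5a3, which takes up the osmolyte myo-inositol, and Slc37a4, which carries glucose 6-phosphate into the endoplasmic reticulum.

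**Figure D2:**
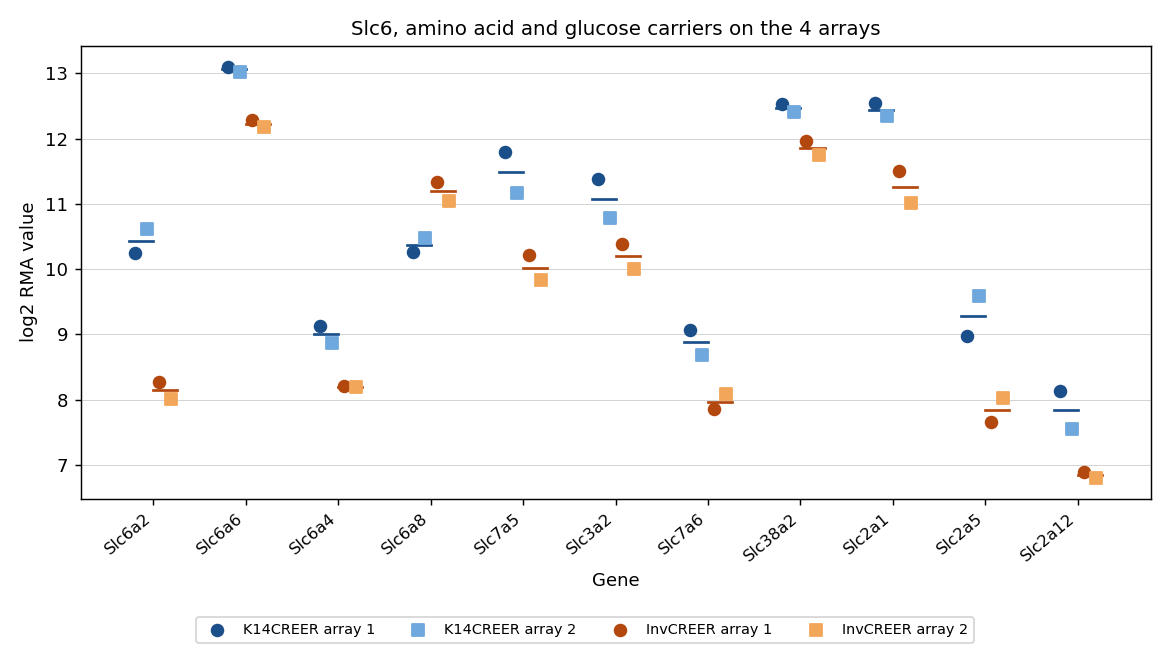
Log2 RMA value (vertical axis) of Slc6, amino acid and glucose carriers on each of the 4 arrays, K14CREER in blue and InvCREER in orange, with circles for array 1, squares for array 2 and bars for line means. In all genes shown the lines do not overlap, and Slc6a8 is the 1 with higher InvCREER values. Heights are not comparable between genes.

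The promoters of Slc2a1 and Slc3a2, which lay lower, and of Slc25a1, which lay higher, are printed as examples. They do not stand for the carriers on either side. The 150 bases before the annotated start are given 5′ to 3′ on the gene's strand, from RefSeq on GRCm38.p6, with each match to a searched motif in capitals. Slc2a1 is at chr4:119108595-119108744 (plus strand), Slc3a2 at chr19:8713898-8714047 (minus strand) and Slc25a1 at chr16:17928220-17928369 (minus strand).
Slc2a1: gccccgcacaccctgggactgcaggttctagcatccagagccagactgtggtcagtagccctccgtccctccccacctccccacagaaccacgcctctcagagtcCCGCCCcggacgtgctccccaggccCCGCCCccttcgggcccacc
Slc3a2: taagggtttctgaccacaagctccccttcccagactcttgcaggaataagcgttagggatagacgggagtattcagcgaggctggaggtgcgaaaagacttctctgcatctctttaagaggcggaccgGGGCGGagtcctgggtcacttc
Slc25a1: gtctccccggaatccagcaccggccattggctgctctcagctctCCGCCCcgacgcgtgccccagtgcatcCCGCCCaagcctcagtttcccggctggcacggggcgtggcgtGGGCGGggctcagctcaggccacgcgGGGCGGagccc

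All capitals in these 3 promoters are GC boxes (GGGCGG on either strand), the site of Sp factors, with 2 in Slc2a1, 1 in Slc3a2 and 4 in Slc25a1. Of the 147 genes 120 had a RefSeq promoter, and 75% of these held a GC box within the 250 bases before the start, against 67.7% of the 6911 genes with a mean of 7 or more and a promoter and 35.4% of all 27025 genes in the table. The E-box CACGTG was in 20% of the 120, against 10.9% and 6.86%. The core of the amino acid response element (TGATGNAA) was in 3 of the 120, the sterol regulatory element (TCACNCCAC) in 2 and the AP-1 site (TGANTCA) in 6, against 2.20%, 1.33% and 5.08% of the 6911 genes. A match is a run of letters and not a shown binding site. Among the 33 promoters of carriers lower without overlap 21.2% held the E-box and 87.9% the GC box, and among the 30 of carriers higher without overlap 13.3% and 66.7%. The motifs do not overlap each other in their letters in the 3 windows shown. Among windows not printed, Slc27a4 and Slc38a2 held 1 GC box each. Those of Slc2a5, which lay lower, and Slc16a14, which lay higher, held no match to any searched motif.

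Of the 3 fatty acid carriers 1 lay higher without overlap and 2 overlapped, and limma called 0, with 1 higher and 0 lower at an unadjusted p under 0.05. Of the 8375 genes 21.9% lay higher without overlap, and 7.62% were higher and 8.74% lower at that p. The class median of 0.18 was -0.079 without InvCREER array 1. Slc27a4, the fatty acid transport protein of the epidermal barrier, was at 8.34 and 7.77 in K14CREER, 10.72 on InvCREER array 1 and 8.89 on InvCREER array 2. The difference of 1.75 (SE 0.57, adjusted p = 0.241 by limma) was 0.84 without InvCREER array 1 and 2.66 without InvCREER array 2. In the latter, with InvCREER array 1 alone standing for its line, the adjusted p was 0.000494, against 0.321 to 0.521 without any other array (by limma). Slc27a1 and Slc27a3, of the same family, overlapped between the lines, at 7.13 and 6.88 against 7.60 and 6.77 and at 7.12 and 7.41 against 7.48 and 7.19. Slc25a1, the mitochondrial citrate carrier that supplies carbon for fatty acid and sterol synthesis, was at 8.999 and 8.87 in K14CREER and at 10.67 and 9.82 in InvCREER. Its difference was 1.30 (SE 0.30, adjusted p = 0.115 by limma), 0.88 without InvCREER array 1, and 1.73 without InvCREER array 2, where it was called (adjusted p = 0.00356), as it was not without any other array (adjusted p from 0.220 to 0.278, by limma). The sebaceous markers were likewise highest on InvCREER array 1, at a list mean of 9.0 against 7.44 on InvCREER array 2, as was the 3' minus 5' difference of Actb and Gapdh, and the part of sebaceous cells or of RNA quality in these values was not tested. Among the markers Far2 was at 6.28 and 5.11 in K14CREER against 10.77 and 8.63 in InvCREER, and Mc5r at 5.04 and 4.75 against 7.36 and 5.95.

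The other carriers of the Slc25 family, most of which sit in the inner mitochondrial membrane, lay close together in the lines. Of 31 members, Slc25a1 included, 14 had lower and 17 higher means, with a median of 0.02, and 21 overlapped between the lines. limma called 0, with 1 lower and 1 higher at an unadjusted p under 0.05, against 8.74% and 7.62% of the 8375 genes. Lower and higher without overlap were 16.1% each, against 23.6% and 21.9% of those genes. Slc25a5, an exchanger of ADP and ATP, was at 12.78 and 12.79 in K14CREER and at 12.73 and 12.88 in InvCREER, and the phosphate carrier Slc25a3 at 12.45 and 12.53 against 12.48 and 12.61. The lines did not separate in either. Slc25a24, a calcium-regulated carrier of ATP-Mg and phosphate, was at 9.46 and 9.75 in K14CREER and at 8.56 and 8.99 in InvCREER, a difference of -0.83 (SE 0.24, adjusted p = 0.182 by limma). Slc25a13, an aspartate-glutamate carrier, was at 8.69 and 8.79 against 8.18 and 8.48, also without overlap, whereas its relative Slc25a12 overlapped.

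Metal ion and heme carriers were split evenly, with 11 lower and 11 higher means among 22 and a median of 0.01. limma called 0, with 0 lower and 3 higher at an unadjusted p under 0.05, against 8.74% and 7.62% of the 8375 genes. Lower without overlap were 22.7% and higher 27.3%, against 23.6% and 21.9% of those genes. The zinc exporters of the Slc30 family, which move zinc out of the cytosol, numbered 7 and differed by at most 0.36 in either direction. Slc30a4 was at 9.24 and 9.25 in K14CREER and at 8.91 and 8.94 in InvCREER, and Slc30a1, the exporter of the plasma membrane, at 9.90 and 10.04 against 9.75 and 9.82. Both were lower without overlap but by small amounts. Of the 9 zinc importers of the Slc39 family 6 had higher means, where 48.8% of the 8375 genes did. Slc39a11 was at 7.92 and 8.06 in K14CREER and at 9.13 and 8.96 in InvCREER, a difference of 1.05 (SE 0.21, adjusted p = 0.0886 by limma), and Slc39a6 at 11.70 and 11.71 against 11.82 and 12.09. Slc39a13, a zinc carrier of the secretory pathway, lay lower, at 7.95 and 7.70 against 7.30 and 7.25. Slc39a1, at 10.62 and 10.42 against 10.62 and 10.40, differed far more between the arrays of a line than between the lines.

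On their brightest probe sets both copper carriers lay higher without overlap, as did 21.9% of the 8375 genes. Slc31a1, the plasma membrane copper importer, was at 7.99 and 8.96 in K14CREER and at 9.31 and 9.47 in InvCREER, a difference of 0.92 (SE 0.34, adjusted p = 0.300 by limma) that was 0.43 without K14CREER array 1 and 1.40 without K14CREER array 2. Its relative Slc31a2 was at 8.10 and 8.24 against 8.72 and 9.53, a difference of 0.96 (SE 0.31, adjusted p = 0.234 by limma) that was 0.55 without InvCREER array 2. Its other probe set overlapped between the lines, at 7.89 and 8.16 against 7.88 and 9.09. The iron and manganese carrier Slc11a2 overlapped between the lines, at 7.60 and 7.62 in K14CREER and at 7.03 and 7.66 in InvCREER.

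**Figure D3:**
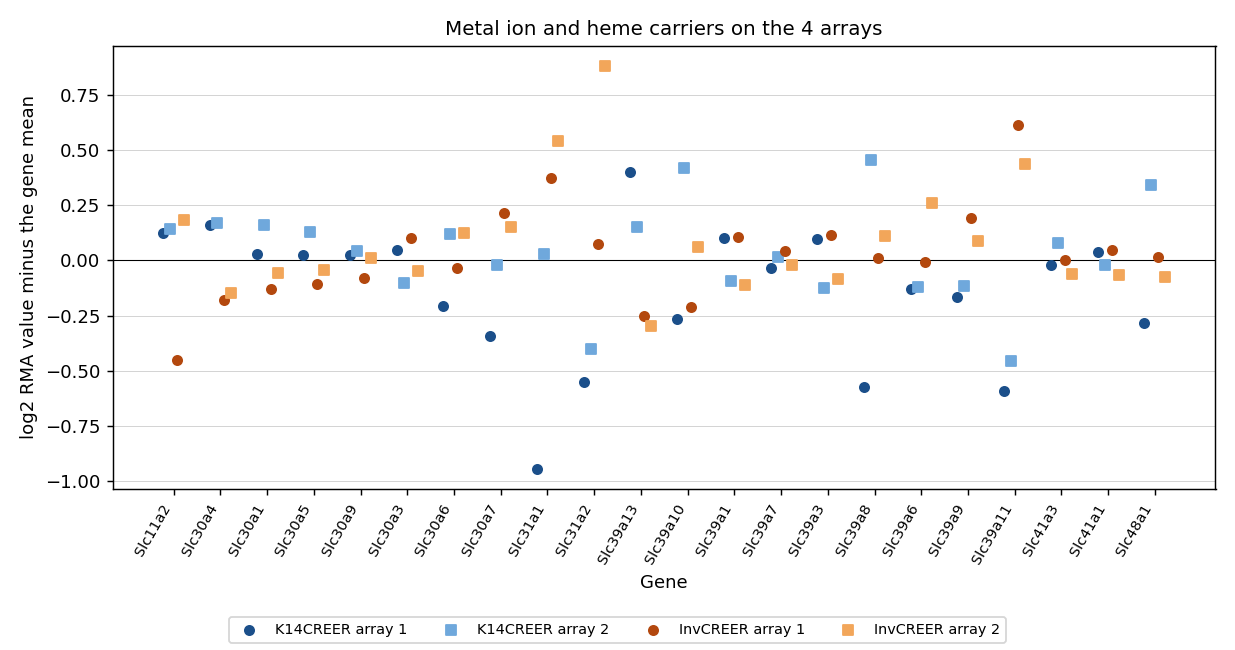
Log2 RMA value minus the mean of the gene over the 4 arrays (vertical axis) for the 22 metal ion and heme carriers, K14CREER in blue and InvCREER in orange, with circles for array 1 and squares for array 2. The zinc exporters of the Slc30 family lie near their means on every array, and Slc31a1, Slc31a2 and Slc39a11 are the genes whose lines lie farthest apart upward.

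Ion carriers differed by gene. Among 4 cation-chloride cotransporters Slc12a4, which carries potassium and chloride out of the cell, was at 9.19 and 8.74 in K14CREER and at 8.17 and 7.57 in InvCREER, a difference of -1.10 (SE 0.30, adjusted p = 0.159 by limma). Slc12a2, the sodium, potassium and chloride importer, lay the other way, at 9.84 and 9.87 in K14CREER and at 10.59 and 10.28 in InvCREER, a difference of 0.58 (SE 0.18, adjusted p = 0.227 by limma). Neither gene overlapped between the lines. Slc9a9, a sodium-proton exchanger of endosomes, was at 6.61 and 6.37 in K14CREER and at 7.70 and 7.51 in InvCREER. Its difference of 1.11 (SE 0.24, adjusted p = 0.0983 by limma) belongs to a gene that reached the limit of 7 through the InvCREER arrays alone. Slc4a2, a chloride-bicarbonate exchanger, followed the array number, at 8.22 and 7.27 in K14CREER against 8.17 and 7.38 in InvCREER. The calcium exchanger Slc24a3 was at 9.29 and 9.25 against 8.92 and 8.50, and Slc8b1, which moves calcium out of mitochondria, at 7.36 and 7.62 against 7.91 and 7.996. The phosphate carrier Slc20a2 was at 9.33 and 9.74 against 9.24 and 8.89, while Slc20a1 and the sulfate carrier Slc26a2 overlapped.

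Vitamin, choline and cofactor carriers stood on both sides, with 4 lower and 3 higher means among 7. Slc19a2, a thiamine carrier, was at 8.35 and 8.55 in K14CREER and at 7.56 and 7.63 in InvCREER, a difference of -0.85 (SE 0.22, adjusted p = 0.147 by limma). Slc52a3, a riboflavin carrier, was at 6.98 and 6.44 against 7.72 and 7.73, and passed the limit through InvCREER alone. The choline carriers Slc44a1 and Slc44a2 were higher without overlap by small amounts, at 10.93 and 11.11 against 11.14 and 11.18, and at 11.21 and 10.89 against 11.40 and 11.35. Slc29a1, the equilibrative nucleoside carrier of the plasma membrane, was at 8.19 and 8.89 in K14CREER and at 7.09 and 7.62 in InvCREER, a difference of -1.18 (SE 0.33, adjusted p = 0.169 by limma), while Slc29a3, its lysosomal relative, overlapped.

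The 10 nucleotide sugar carriers, which feed glycosylation in the Golgi apparatus and endoplasmic reticulum, had 5 lower and 5 higher means. Slc35d1 was at 8.06 and 8.37 in K14CREER and at 7.66 and 7.34 in InvCREER, a difference of -0.72 (SE 0.25, adjusted p = 0.269 by limma). The carrier of cytidine monophosphate sialic acid, Slc35a1, was at 7.98 and 8.24 against 7.56 and 7.66. The uridine diphosphate galactose carrier Slc35a2 lay higher, at 8.78 and 8.27 against 9.38 and 8.99, but 1 of its 4 other tested probe sets had the opposite sign. Of 6 organic ion and carnitine carriers Slc22a5, the carnitine importer, was at 7.81 and 7.61 in K14CREER and at 8.20 and 8.06 in InvCREER, and its relative Slc22a4 at 10.24 and 10.32 against 10.46 and 10.49. All 4 members of the Slc16 family had higher means, as had 48.8% of the 8375 genes. The lactate and pyruvate carrier Slc16a1 was at 10.04 and 9.71 against 10.29 and 9.89 and overlapped.

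Among 19 genes with no substrate assigned here the widest differences were those of Slc16a14 and Slc16a6 upward and Slc66a2 downward. Slc16a14 was at 8.89 and 9.25 in K14CREER and at 10.28 and 10.41 in InvCREER. The arrays of each line lay close together. The difference was 1.27 (SE 0.20, adjusted p = 0.0539 by limma), and it was called without InvCREER array 1 (adjusted p = 0.0360) and without InvCREER array 2 (adjusted p = 0.0404), but not without K14CREER array 1 (adjusted p = 0.178) or K14CREER array 2 (adjusted p = 0.0852, all by limma). Slc16a6 was at 7.78 and 8.64 against 9.48 and 9.26, a difference of 1.16 (SE 0.32, adjusted p = 0.168 by limma) that was 0.73 without K14CREER array 1 and 1.59 without K14CREER array 2. Slc66a2 was at 10.94 and 10.99 in K14CREER and at 9.88 and 10.02 in InvCREER, a difference of -1.01 (SE 0.16, adjusted p = 0.0522 by limma) that was called without InvCREER array 2 (adjusted p = 0.0176) but not without any other array (adjusted p from 0.0566 to 0.178, by limma).  The rule also took in a pair of genes that are named after carriers but carry nothing. Slc9a3r1, a scaffold protein that anchors carriers at the membrane, was at 9.22 and 8.56 in K14CREER and at 9.96 and 9.94 in InvCREER, a difference of 1.06 (SE 0.26, adjusted p = 0.131 by limma).

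**Figure D4:**
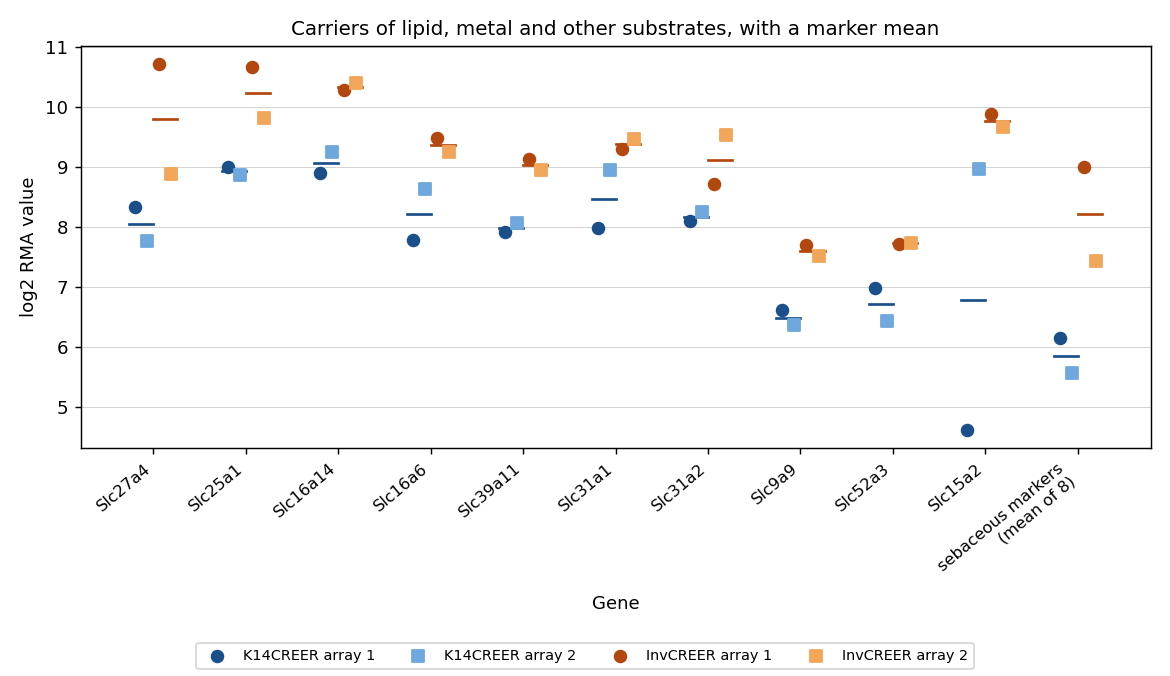
Log2 RMA value (vertical axis) of carriers with higher InvCREER values on each of the 4 arrays, K14CREER in blue and InvCREER in orange, with circles for array 1, squares for array 2 and bars for line means. The last column is the mean of the 8 measured sebaceous markers. InvCREER array 1 is above InvCREER array 2 in Slc27a4 and Slc25a1, as in the marker mean, and by little in Slc16a6, Slc39a11, Slc9a9 and Slc15a2. It is below InvCREER array 2 in Slc16a14, Slc31a1, Slc31a2 and Slc52a3. K14CREER array 1 of Slc15a2 stands at 4.62. Heights are not comparable between genes.

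The genes that work beside solute carriers were read from 8 lists with 128 tested genes, of which limma called 1, the prostaglandin carrier gene Slco2a1, against 1.33% of the 11270 tested genes (0.373% lower and 0.958% higher). Slco2a1 was at 9.72 and 9.19 in K14CREER and at 7.70 and 7.79 in InvCREER, and fell by 1.71 (SE 0.25, adjusted p = 0.0454 by limma). The call was lost without either K14CREER array (adjusted p = 0.158 without array 1 and 0.0644 without array 2, by limma), and also when dim probe sets were kept (adjusted p = 0.0529) and without the variance trend (adjusted p = 0.0685, both by limma). The other 3 tested Slco genes were not called. All 18 tested subunits of the vacuolar proton pump, which acidifies lysosomes, had higher means in InvCREER, as had 48.2% of all tested genes, where 51.8% had lower means, and their median difference was 0.45. Of them 13 did not overlap, all of them higher, against 21.3% of all tested genes higher and 24.1% lower without overlap, and limma called 0 of the 18. The subunit genes Atp6v0e2 and Atp6v0a4 differed by 1.60 (SE 0.25, adjusted p = 0.0514 by limma) and 1.34 (SE 0.25, adjusted p = 0.0751 by limma), with K14CREER means below the filter value of 5.42, which limits the size. Both passed the filter through the InvCREER arrays alone, so their differences are in part a product of it.

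Of 12 tested sodium pump subunits and carrier ancillary proteins 5 had higher and 7 lower means. Emb, which escorts carriers of the Slc16 family to the membrane, was at 7.27 and 6.77 in K14CREER, 9.59 on InvCREER array 1 and 8.001 on InvCREER array 2. Its difference of 1.78 (SE 0.52, adjusted p = 0.187 by limma) was 0.98 without InvCREER array 1 (adjusted p = 0.284) and 2.57 without InvCREER array 2 (adjusted p = 0.00111, both by limma), the latter with a single InvCREER array. The 21 amino acid response genes driven by ATF4 had 11 higher and 10 lower means, with a median of 0.12, and Vldlr was at -1.13 (SE 0.19, adjusted p = 0.0565 by limma) and Nupr1 at 1.39 (adjusted p = 0.393 by limma), which was 2.39 without K14CREER array 1 and 0.39 without K14CREER array 2. The 22 genes of amino acid sensing by mTORC1 had a median of 0.03, with Fnip1 at -0.39 and Fnip2 at -0.28. Of 19 metal handling genes 11 were higher and 8 lower, and the metalloreductase gene Steap4 was at 1.34 (SE 0.22, adjusted p = 0.0551 by limma) against -1.21 (SE 0.26, adjusted p = 0.0965 by limma) for Steap2. Among 5 tested aquaporins, Aqp3, the water and glycerol channel of basal keratinocytes, was at 12.19 and 11.95 in K14CREER and at 12.26 and 12.16 in InvCREER and overlapped. The 27 tested ABC transporters had a median of 0.08, with Abcb10 at 1.02 (adjusted p = 0.0916 by limma) and Abcb1b at -1.07 (adjusted p = 0.131 by limma). At an unadjusted p under 0.05 limma gave 19 higher and 9 lower genes among the 128, against 7.58% and 8.54% of all tested genes, of which 8 higher and 0 lower were proton pump subunits and 0 were aquaporins or genes of mTORC1 sensing.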

How the data were processed

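RNA of sorted basal keratinocytes (100 ng per array, per the labels) was measured on 4 Affymetrix arrays, 2 per Cre line. The authors deposited log2 values of 45101 probe sets, which the submitters' processing notes trace to RMA and to version 1.1 of Affymetrix Expression Console. RMA equalises the distribution of intensities between arrays, so that a shift shared by most genes is not visible, and the array medians lay between 5.41 and 5.44. The deposited values were used as they stand.

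Control probe sets (64) were left out, and the 22519 probe sets with a mean at or above the median of 5.42 were tested with limma 3.58.1 in R 4.3.3 (lmFit and eBayes with a variance trend, 2-sided, Benjamini-Hochberg adjustment over all of them), on a design checked on simulated data. Genes were named from the platform annotation, in which 34945 probe sets had 1 symbol, 932 several and 9160 none, and each gene was represented by its brightest probe set. There were 656 Slc probe sets with 1 symbol, and 6 with several symbols were not used. Of the 147 genes 88 had more than 1 probe set. Tables and figures were made with Python 3.11.15, pandas 2.3.3 and matplotlib 3.10.9.

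The genes, substrate classes, pathway lists and marker lists were chosen with earlier results of these data known. Named genes were those called, and in each class of 3 or more the 2 with the highest mean and the 2 with the largest difference without overlap; the genes nearest the limit of 7; and in each list the called genes and the 2 with the largest difference. Slc66a2 and Slc4a1ap were moved between substrate classes after values were seen. Promoters came from RefSeq (GRCm38.p6), and the array build is not given in the sources used here. Alternatives changed the filter, variance model, scaling, probe set choice, adjustment, membership limit, replicate block and arrays used.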

Additional observations from a re-analysis of the deposited data

How the results depend on the processing

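The median difference of the 146 solute carriers stayed between -0.01 and 0.07 under the alternatives tried. The number called (1, with 0 higher and 1 lower) depended on the setting, and so did the number called in the pathway lists (1). The share of all genes called was not taken under the other limma settings. The counts below thus describe the settings and show nothing particular to the carriers. With the stricter filter it was 6 (1 higher, 5 lower, and 3 in the lists), without the variance trend 0 (0 lower, and 0 in the lists), with arrays centred on their medians 3 (3 lower), and with quantile normalization repeated 4 (1 higher, 3 lower, and 2 in the lists). With the mean of all probe sets per gene it was 8 (3 higher, 5 lower, and 4 in the lists), with 1 probe set per gene 10 (4 higher, 6 lower, and 8 in the lists), at an adjusted p under 0.10 10 (4 higher, 6 lower), and by a 1.5-fold rule 17 (8 higher, 9 lower). With membership at a mean of 6 it was 3 (2 higher). Adjusted over genes with a mean of 7 or more, an alternative chosen after seeing the data, it was 5 (1 higher, 4 lower). The lists gave 0 with no filter and 2 without s and x probe sets. Leaving out 1 array at a time gave 0 to 9 called (0 to 4 higher, 0 to 5 lower), and 0 to 10 in the lists.

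With the replicate number as a block 20 were called (8 higher, 12 lower, and 17 in the lists). The numbers name the arrays and no shared batch is given. The difference between number 1 and number 2 correlated between the lines at r = 0.38 across 22519 probe sets, which are not independent. The count with the block is not in itself evidence of pairing. Whether the arrays were paired by number is not stated in the labels and was not tested.

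Class medians moved when 1 array was left out: amino acids -0.27 to -0.042, metal ions -0.038 to 0.045, neurotransmitters, osmolytes and creatine -0.87 to -0.67, organic ions 0.060 to 0.18, protons and anions 0.34 to 0.50, sugars -0.52 to -0.30, nucleotide sugars -0.12 to 0.054, unassigned substrates -0.022 to 0.19, vitamins -0.075 to 0.12 and fatty acids -0.079 to 0.595. The medians of metal ions, nucleotide sugars, unassigned substrates, vitamins and fatty acids thus changed sign in at least 1 of these, as did those of chloride and potassium cotransport (-0.36 to 0.15), the Slc25 family (-0.067 to 0.11) and phosphate and sulfate (-0.12 to 0.14). The unassigned class was at 0.13 with the mean of all probe sets and organic ions at 0.20 without s and x probe sets. In the class of protons and anions Slc26a11 and Slc9a9 had passed the limit of 7 through InvCREER alone, so its median is in part a product of the rule. Over the same omissions Fnip2 ranged from -0.61 to 0.049 and Aqp9 from -1.34 to 0.040, the sign turning without InvCREER array 2 and without K14CREER array 2, respectively. The cause of these changes was not tested. With 2 arrays per line, signal near background limits the dimmer genes.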

Other observations

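Of the 200 Slc genes with a mean under 7, 135 lay below the filter and 65 were tested. limma called 3 of these higher and 1 lower in InvCREER, where 0.958% and 0.373% of all tested genes were called. Without overlap 12 were higher and 14 lower (18.5% and 21.5%), close to the 21.3% and 24.1% of all tested genes. The 4 were chosen after their values were seen. Slc5a1, the sodium-coupled glucose carrier, was at 5.51 and 5.12 in K14CREER and at 8.06 and 8.40 in InvCREER, and rose by 2.92 (SE 0.26, adjusted p = 0.0120 by limma). Slc40a1, the iron exporter ferroportin, was at 5.59 and 5.47 in K14CREER and at 7.69 and 7.88 in InvCREER, and rose by 2.26 (SE 0.23, adjusted p = 0.0156 by limma). Slc6a20a, a carrier of proline and other imino acids, was at 4.58 and 4.40 against 7.79 and 6.99, and rose by 2.90 (SE 0.31, adjusted p = 0.0186 by limma). Slc2a9, a urate carrier, was at 6.57 and 6.38 in K14CREER and at 5.00 and 5.00 in InvCREER, and fell by 1.47 (SE 0.22, adjusted p = 0.0452 by limma). In each of the 4 one line lay near or below the filter value of 5.42, so the sizes are limited by background. Slc5a1, Slc6a20a and Slc2a9 passed this filter only through the line where they were high. Their calls, and the counts that hold them, are therefore in part a product of the filter.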
